A study of Mus musculus with 42 samples.

Results

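The results concern 34 mouse genes that type I interferon is known to switch on, most of which make proteins that block viruses. They were chosen by symbol from a count table of 45317 gene entries, by a rule that uses no measured value but was written with earlier results of these data known. All 34 symbols were in the table, and all 34 passed the filter on low counts that left 12529 genes to test.

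The cells were mesenchymal stromal cells (MSCs), grown from the bone marrow of C57BL/6 mice, bought as a commercial stock, expanded and kept undifferentiated. Every group was treated for 48 h: with the solvent dimethyl sulfoxide alone (DMSO, 0.1%), or with rosiglitazone (ROSI in the labels, 100 nM), AGN194204 (4204 in the labels, 100 nM) or tributyltin (TBT, 50 nM). Rosiglitazone, an antidiabetic drug, works through PPARγ, a nuclear receptor. AGN194204 is a man-made ligand of RXR, the retinoid X receptors that pair with PPARγ, and the organotin TBT is known to bind and activate both receptors. Each treatment had 6 RNA libraries, and the histone marks H3K4me3, found at active gene starts, and H3K27me3, found on repressed genes, were mapped in 4 DMSO and 4 TBT libraries each from cells treated alike in separate plates. No virus, interferon or nucleic acid was given to any group, as far as the labels say. The labels do not say that the libraries of a group came from separate cultures, so the p-values describe only how these libraries spread, and that spread may be technical.

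A cell that detects viral nucleic acid makes interferon β or α, and the secreted protein binds the receptor pair Ifnar1 and Ifnar2 on the same or a neighbouring cell. The kinases Jak1 and Tyk2 then phosphorylate transcription factors of the STAT family, among them Stat2, which with Irf9 is part of ISGF3, a complex that binds the interferon-stimulated response element (ISRE) in the promoters of many genes. Many cell types, stromal cells included, also keep a low level of these genes without infection, known as tonic interferon signalling. The 34 genes hold effectors that attack viral RNA or particles (the Ifit, Oas and Mx families, Rsad2, Bst2) and sensors of viral RNA (Ddx58, Ifih1, Dhx58). They also hold genes of protein modification (the modifier Isg15 and its partners, and the Parp enzymes).

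The sequence that ISGF3 binds can be read in some of these promoters. RefSeq promoter entries (GRCm38.p6) were matched for 24 of the 34 genes, and the 250 bases before each listed start were searched on both strands for the ISRE core GAAANNGAAA, whose reverse complement is TTTCNNTTTC. Matches may overlap each other. The core was present in 7 of the 24 genes (29.2%), against 288 of the 9028 tested genes with an entry (3.19%). The 7 genes were Ifit1, Ifit3, Isg15, Rsad2, Oas1a, Oas3 and Bst2. The gamma-activated site TTCNNNGAA was present in 5 of 24 (20.8%) and in 7.07% of the tested genes. No member held the exact RXR heterodimer repeats AGGTCANAGGTCA or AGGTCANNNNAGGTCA in this window, which were found in 0.0332% and 0 of the tested genes. Usp18, Mx1, Mx2, Oas2, Dhx58, Zbp1, Rtp4, Parp9, Parp14 and Ifi27 had no entry. A match is a description of the letters and not a bound site.

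The upstream bases of 5 of these genes are shown to make the element visible, written 5′ to 3′ on the gene's own strand with the ISRE matches in capitals. They lie at chr19:34640639-34640888 (plus strand) for Ifit1, chr19:34583279-34583528 (plus strand) for Ifit3, chr4:156200819-156201068 (minus strand) for Isg15, chr12:26456453-26456702 (minus strand) for Rsad2 and chr8:71537473-71537722 (minus strand) for Bst2. The first base of the ISRE match nearest to the start was 85 bases before the start in Ifit1, 122 in Ifit3, 66 in Isg15, 120 in Rsad2 and 124 in Bst2.
Ifit1: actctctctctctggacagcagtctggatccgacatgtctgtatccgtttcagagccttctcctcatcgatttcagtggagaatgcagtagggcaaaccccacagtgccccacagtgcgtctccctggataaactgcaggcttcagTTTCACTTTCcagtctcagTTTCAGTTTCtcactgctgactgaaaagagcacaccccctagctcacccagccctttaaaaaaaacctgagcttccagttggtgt
Ifit3: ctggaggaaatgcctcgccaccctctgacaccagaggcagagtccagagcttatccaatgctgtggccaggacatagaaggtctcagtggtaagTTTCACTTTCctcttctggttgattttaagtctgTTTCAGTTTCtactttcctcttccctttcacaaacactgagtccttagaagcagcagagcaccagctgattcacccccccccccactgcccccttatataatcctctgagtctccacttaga
Isg15: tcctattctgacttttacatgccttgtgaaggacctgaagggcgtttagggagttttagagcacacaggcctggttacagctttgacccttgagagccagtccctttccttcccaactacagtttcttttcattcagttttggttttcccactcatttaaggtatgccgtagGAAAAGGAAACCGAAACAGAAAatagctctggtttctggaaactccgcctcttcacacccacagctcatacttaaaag
Rsad2: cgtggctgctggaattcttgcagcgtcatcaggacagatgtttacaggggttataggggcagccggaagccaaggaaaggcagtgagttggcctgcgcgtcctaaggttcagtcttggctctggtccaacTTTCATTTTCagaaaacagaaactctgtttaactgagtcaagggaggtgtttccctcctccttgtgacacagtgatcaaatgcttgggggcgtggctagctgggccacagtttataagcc
Bst2: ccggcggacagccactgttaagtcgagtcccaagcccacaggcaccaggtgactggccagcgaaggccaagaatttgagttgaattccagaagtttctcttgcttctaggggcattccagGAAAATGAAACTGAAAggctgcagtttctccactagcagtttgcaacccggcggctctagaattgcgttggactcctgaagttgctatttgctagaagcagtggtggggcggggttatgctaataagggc
Ifit1 and Ifit3 carry 2 separate matches each, Isg15 carries 3 and Bst2 2 that run into each other, and Rsad2 carries 1.

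TBT and AGN194204 each raised the RNA of all 34 genes, and rosiglitazone changed none of them past the threshold. In TBT against DMSO, 34 of 34 were called higher and 0 lower by edgeR's quasi-likelihood test with Benjamini-Hochberg adjustment, where 15% of all genes tested were called higher and 13.9% lower. The median rise was 0.62 on the log2 scale (1.54-fold), with all tested genes at a median of -0.01, and adjusted p ran from 1.25e-10 to 0.0194. In AGN194204 against DMSO 34 of 34 were called higher and 0 lower, where 12.8% of all genes were called higher and 11.3% lower. The median rise was 0.69 (1.61-fold), and adjusted p ran from 1.80e-10 to 0.00483. In rosiglitazone against DMSO 0 of 34 were called by edgeR, where 1.04% of all genes were called in either direction, and DESeq2 called 0 too. The same comparison had 0 members higher (5.06% of all genes) and 2 lower, Parp14 and Adar (6.22%), at an unadjusted p under 0.05. The 3 comparisons share the same 6 DMSO libraries. Scaling the libraries by the ERCC spike-in RNA ended 1 of these calls at an adjusted p under 0.05, the AGN194204 rise of Ifi27 (adjusted p = 0.073), while it moved the split over all genes in TBT against DMSO from 1878 higher and 1745 lower to 1802 and 293.

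**Figure D1:**
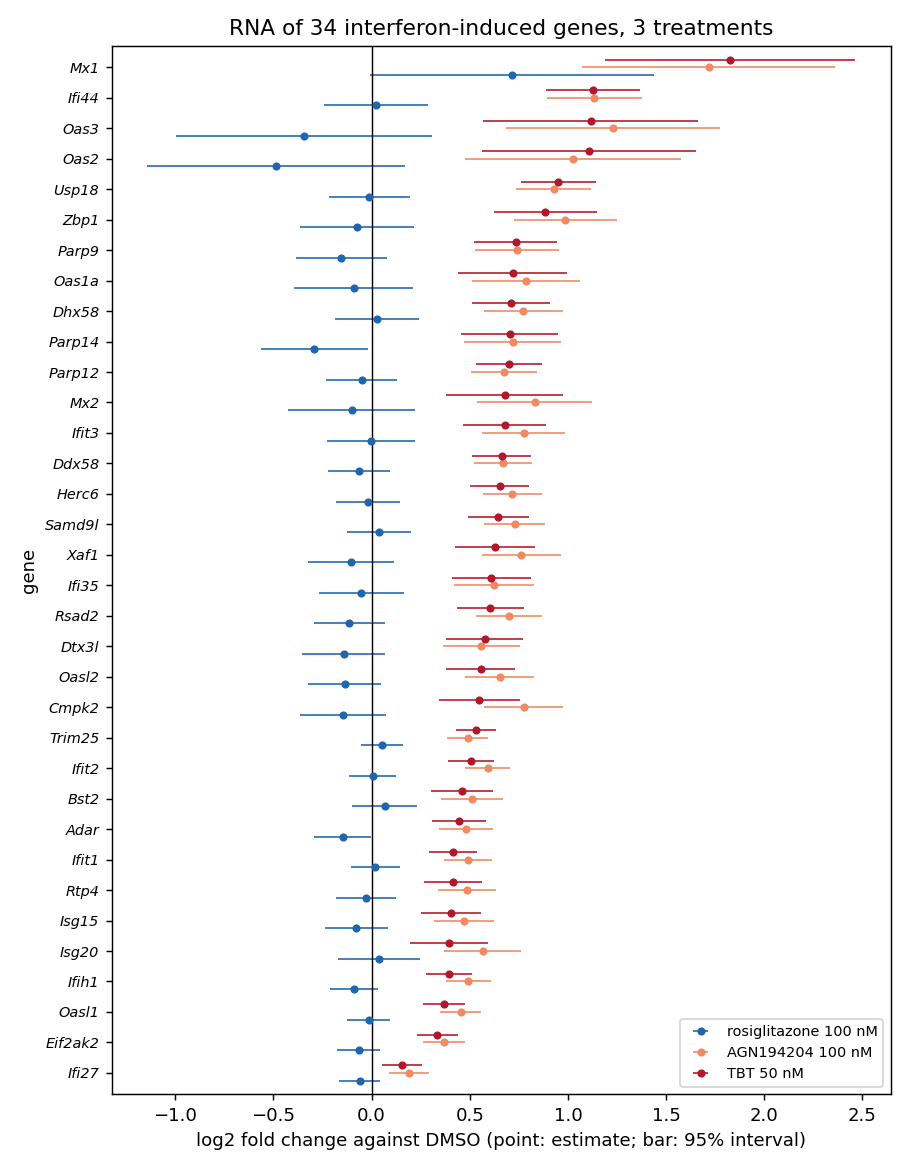
Log2 fold change of RNA against DMSO (x axis) for each of the 34 genes (y axis, ordered by the TBT value) in cells given TBT, AGN194204 or rosiglitazone, with points for the estimates and bars for 95% intervals over 6 libraries a group. All TBT and AGN194204 points lie right of 0, between 0.15 and 1.83, and the rosiglitazone points lie between -0.49 and 0.71.

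Read library by library, most genes separated without overlap. All 6 TBT libraries lay above all 6 DMSO libraries for 22 of 34 genes (6.73% of all genes tested did so), and all 6 AGN194204 libraries did for 31 of 34 (6.90% of all genes). The genes whose AGN194204 and DMSO libraries overlapped were Isg15, Oas2 and Ifi27. In 17 of the 34 genes, all 12 libraries given TBT or AGN194204 lay above all 12 libraries given DMSO or rosiglitazone, and 2.75% of all tested genes did the same. These 17 included Usp18, Rsad2, Ifi44, Ddx58, Dhx58, Trim25, Eif2ak2 and Adar.

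The GTPases of the Mx family trap viral nucleocapsids, and C57BL/6 mice are known to carry a defective Mx1 allele, so the Mx1 level here is one of RNA. Mx1 had the largest rise of the 34 in both TBT and AGN194204, from a low level. In CPM (gene counts scaled to library size with TMM factors), the lowest, median and highest of 6 libraries for Mx1 were 0.848, 2.19 and 3.62 in DMSO, 1.51, 2.69 and 7.45 in rosiglitazone, 3.83, 6.16 and 11.1 in AGN194204, and 4.13, 7.86 and 10.6 in TBT. All TBT and AGN194204 libraries lay above all DMSO libraries, and 2 rosiglitazone libraries, replicates 1 and 4, lay above the lowest of them. The log2 fold change of Mx1 was 1.83 ± 0.315 (SE) in TBT (edgeR adjusted p = 1.88e-05) and 1.72 ± 0.318 in AGN194204 (6.77e-05). In rosiglitazone it was 0.71 with a 95% interval of -0.01 to 1.44 (adjusted p = 0.451). Mx2 rose by 0.68 in TBT and 0.83 in AGN194204, with a rosiglitazone value of -0.10.

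The Oas enzymes make short oligoadenylates that switch on the nuclease RNase L. Oas2 had 2.76, 3.09 and 9.72 CPM in DMSO (lowest, median, highest), 0.984, 3.29 and 4.82 in rosiglitazone, 5.63, 8.71 and 12.0 in AGN194204, and 6.22, 9.41 and 13.8 in TBT. DMSO replicate 4 reached into the range of the treated libraries and the other 5 lay below all of them. Oas2 rose by 1.11 ± 0.269 in TBT and 1.03 ± 0.271 in AGN194204 (log2 ± SE), with edgeR adjusted p of 0.00158 and 0.00429. Oas3 had 5.57, 6.98 and 12.0 CPM in DMSO, 1.97, 5.32 and 13.5 in rosiglitazone, 13.5, 18.2 and 25 in AGN194204, and 6.72, 18.1 and 26.8 in TBT. The TBT libraries of Oas3 overlapped the DMSO libraries and the AGN194204 libraries did not. Its rises were 1.12 ± 0.271 and 1.23 ± 0.269. Oas1a, a member of a cluster of close paralogs whose reads the counting could have split, rose by 0.72 in TBT and 0.79 in AGN194204. Oasl2 rose by 0.56 and 0.65.

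Oasl1 lacks the enzyme activity and is known to hold back translation of Irf7 in mice. It was among the 3 smallest changes of the 34 in both comparisons, with a narrow spread in DMSO but not in rosiglitazone or TBT. Its levels were 140, 141 and 142 CPM in DMSO, 118, 137 and 162 in rosiglitazone, 186, 190 and 205 in AGN194204, and 168, 181 and 205 in TBT. Every TBT and AGN194204 library of Oasl1 was above every library of the other groups, and the rises were 0.37 ± 0.0523 and 0.45 ± 0.0521.

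The Ifit proteins bind viral RNA that lacks the marks of a host cap and block its translation. Ifit1 had 253, 274 and 278 CPM in DMSO, 228, 279 and 300 in rosiglitazone, 317, 395 and 404 in AGN194204, and 297, 367 and 396 in TBT. The treated libraries cleared the DMSO range, and the highest rosiglitazone library stood just above the lowest TBT library. Ifit1 rose by 0.41 ± 0.0604 in TBT (edgeR adjusted p = 1.12e-06) and by 0.49 ± 0.0602 in AGN194204 (4.88e-08). Ifit2 rose by 0.51 and 0.59, and Ifit3 by 0.68 and 0.77. Ifit3 has a near-identical copy, Ifit3b, so its count is uncertain.

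Other effectors moved the same way. Ifi44, which was at least 2-fold higher in both treatments together with Mx1, Oas2 and Oas3, had 50.0, 54.3 and 61.0 CPM in DMSO, 40.0, 55.5 and 76.8 in rosiglitazone, 95.8, 120 and 143 in AGN194204, and 81.9, 116 and 163 in TBT. Its log2 fold change was 1.13 ± 0.119 in each. Bst2, also called tetherin, holds budding virus particles at the cell surface. It had 80.5, 91.3 and 97.6 CPM in DMSO, 76.8, 93.6 and 117 in rosiglitazone, 116, 133 and 137 in AGN194204, and 94.7, 129 and 144 in TBT. The lowest TBT library of Bst2 fell inside the DMSO range, and the rises were 0.46 ± 0.0781 and 0.51 ± 0.0778. Rsad2 (viperin), which makes a chain-terminating nucleotide, rose by 0.61 in TBT and 0.70 in AGN194204. Cmpk2, a mitochondrial nucleotide kinase encoded next to Rsad2 on chromosome 12, rose by 0.55 and 0.77. The exonuclease Isg20 rose by 0.39 and 0.57, Samd9l, a restrictor of translation, by 0.64 and 0.73, and Xaf1, which is linked to cell death, by 0.63 and 0.76. Ifi35 rose by 0.61 and 0.62, and Rtp4 by 0.41 and 0.48.

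**Figure D2:**
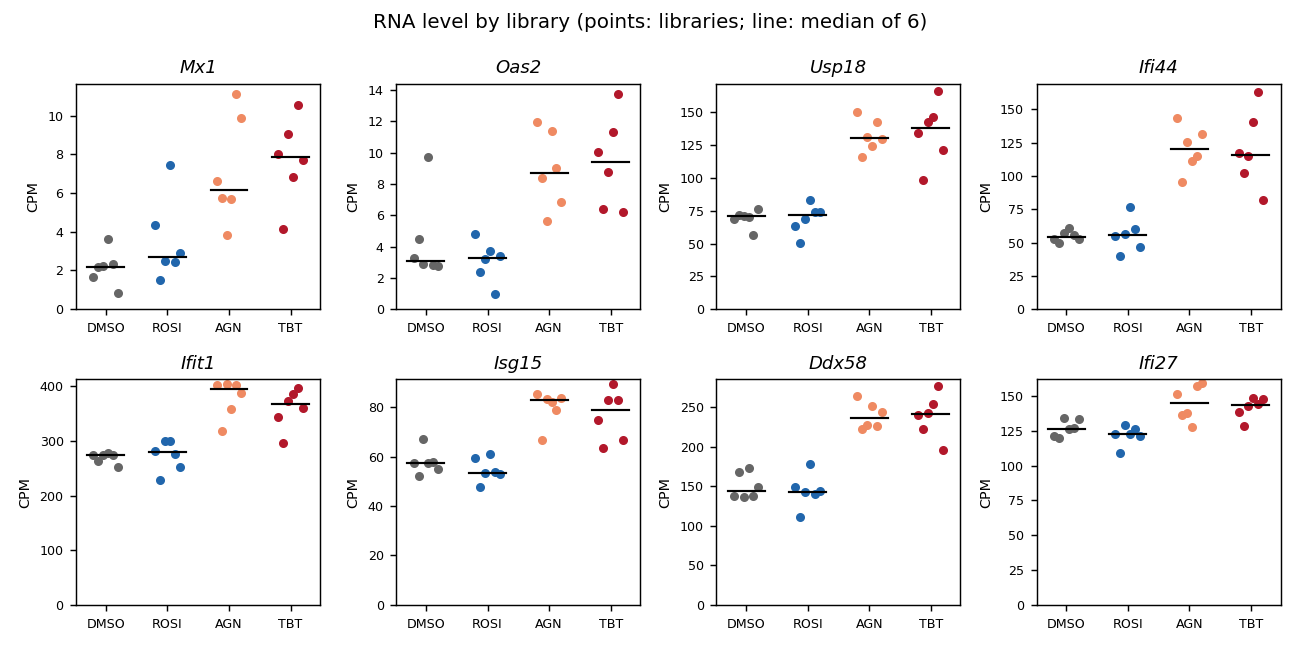
RNA level in CPM (y axis, from 0) of 8 of the genes in each of the 6 libraries per treatment (x axis; ROSI is rosiglitazone and AGN is AGN194204), with a line at the median. Usp18, Ifi44 and Ddx58 show the TBT and AGN194204 libraries above all others, and Ifi27 shows overlapping groups.

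The sensors of foreign nucleic acid rose with the effectors. Ddx58 encodes RIG-I, which binds viral RNA ends, and had 137, 144 and 173 CPM in DMSO, 111, 143 and 178 in rosiglitazone, 223, 236 and 265 in AGN194204, and 197, 241 and 277 in TBT. All 12 TBT and AGN194204 libraries stood above the other 12, and Ddx58 rose by 0.66 ± 0.074 and 0.67 ± 0.074 (edgeR adjusted p = 4.33e-09 and 4.72e-09). Ifih1 encodes MDA5, which binds long double-stranded RNA. Its levels were 110, 119 and 143 CPM in DMSO, 104, 116 and 123 in rosiglitazone, 156, 169 and 193 in AGN194204, and 139, 158 and 180 in TBT. The lowest TBT library of Ifih1 overlapped DMSO, and the rises were 0.39 ± 0.0579 and 0.49 ± 0.0575. Dhx58, which encodes the helper LGP2, rose by 0.71 in TBT and 0.77 in AGN194204. Zbp1, a sensor of left-handed nucleic acid, rose by 0.89 and 0.99. Trim25, a ubiquitin ligase known to act on RIG-I, rose by 0.53 and 0.49 and had the smallest adjusted p of the 34 in TBT (1.25e-10).

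Eif2ak2 encodes the kinase PKR, which stops translation when it meets double-stranded RNA, and Adar edits such RNA. Eif2ak2 had 203, 217 and 223 CPM in DMSO, 184, 200 and 237 in rosiglitazone, 254, 278 and 316 in AGN194204, and 245, 271 and 302 in TBT. Its rises of 0.34 ± 0.0525 and 0.37 ± 0.0524 were small, and every treated library lay above every DMSO and rosiglitazone library. Adar had 101, 116 and 120 CPM in DMSO, 84.2, 100 and 124 in rosiglitazone, 142, 156 and 182 in AGN194204, and 130, 158 and 169 in TBT. It rose by 0.44 ± 0.0683 in TBT and 0.48 ± 0.0682 in AGN194204, with every treated library above every DMSO and rosiglitazone library.

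Isg15 is a ubiquitin-like protein attached to other proteins by an enzyme chain that includes the ligase Herc6, and Usp18 removes it and also shuts off the receptor. Isg15 had 52.1, 57.4 and 67.1 CPM in DMSO, 47.8, 53.6 and 61.0 in rosiglitazone, 66.8, 82.8 and 85.2 in AGN194204, and 63.3, 78.8 and 89.2 in TBT. Single libraries overlapped in both comparisons, and Isg15 rose by 0.40 ± 0.0759 in TBT (edgeR adjusted p = 7.28e-05) and 0.47 ± 0.0755 in AGN194204 (7.47e-06). Usp18 had 56.7, 70.7 and 76.6 CPM in DMSO, 50.2, 71.5 and 82.9 in rosiglitazone, 116, 130 and 150 in AGN194204, and 98.1, 138 and 166 in TBT. No treated library of Usp18 reached down to the others. It rose by 0.95 ± 0.0934 in TBT and 0.93 ± 0.0936 in AGN194204, and its rosiglitazone value was -0.01 with a 95% interval of -0.22 to 0.19. Herc6 rose by 0.65 and 0.72.

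The Parp genes encode enzymes that attach ADP-ribose to proteins, and Dtx3l encodes the ubiquitin ligase that pairs with Parp9. Parp9 rose by 0.73 in TBT and 0.74 in AGN194204, Parp12 by 0.70 and 0.67, Parp14 by 0.70 and 0.72, and Dtx3l by 0.58 and 0.56. Parp9 and Dtx3l overlap in the annotation, and no source used here says if the counting took account of strand, so their reads may be shared. The smallest change of the 34 was that of Ifi27, a mitochondrial protein. Ifi27 had 120, 127 and 134 CPM in DMSO, 109, 123 and 129 in rosiglitazone, 128, 145 and 159 in AGN194204, and 128, 143 and 149 in TBT. Its groups overlapped, the rises were 0.15 ± 0.0508 (edgeR adjusted p = 0.0194) and 0.19 ± 0.0507 (0.00483), and the TBT call was lost without DMSO replicate 2 (adjusted p = 0.0513).

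With rosiglitazone, of the 34, 9 were above 0 and 25 below, with a median of -0.06 and a range from -0.49 in Oas2 to 0.71 in Mx1. Leaving out 1 library moved the number above 0 to between 3 and 18. For all 34 genes the upper end of the rosiglitazone 95% interval lay below the fitted rise in TBT and below the fitted rise in AGN194204. Set directly against rosiglitazone, TBT was higher in 34 of 34 genes (15.2% of all genes were called higher) with a median of 0.69, and AGN194204 in 34 of 34 (13.5% of all genes) with a median of 0.74.

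The rises in TBT at 50 nM and in AGN194204 at 100 nM were not told apart by the test, at doses that differ. In TBT against AGN194204, 0 of 34 genes were called by edgeR in either direction, where 0.846% of all genes were called, and DESeq2 also called 0. There were 0 higher (5.05% of all genes) and 1 lower, Cmpk2 (5.08%), at an unadjusted p under 0.05. Of the 34 values 28 were below 0 (smaller in TBT) with a median of -0.07, although scaling by spike-ins put 18 above 0. They ran from -0.23 in Cmpk2 to 0.11 in Mx1, and the Mx1 value turned to -0.02 without AGN194204 replicate 3. The 95% intervals reached from -0.60 to 0.64 at their outermost, and their median bounds were -0.22 and 0.10, so differences within those bounds were not resolved.

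The libraries of a group also differed among themselves, and 1 library often held the highest or lowest value for many of the 34 genes. The mean log2 CPM over the 34 genes ran from 5.76 to 6.09 in DMSO, from 5.5 to 6.17 in rosiglitazone, from 6.45 to 6.79 in AGN194204 and from 6.27 to 6.83 in TBT. Rosiglitazone replicate 4 was the highest of its group for 30 of the 34 genes and replicate 2 the lowest for 29. Among TBT libraries, replicate 5 was the highest for 27 genes and replicate 2 the lowest for 22. AGN194204 replicate 1 was the highest for 25 genes, and DMSO replicate 4 for 21. AGN194204 replicate 2 was the lowest for 19. The same counts were not made over all tested genes, so they are not read as particular to the 34. Library pairs were also compared over all genes with enough counts, as chi-squared per degree of freedom against counting error. Pairs with TBT replicate 2 gave 3.41 to 4.845, the other TBT pairs 1.455 to 2.401, and pairs of other groups at most 2.875. TBT replicate 2 thus stood apart over all genes. TBT replicate 2 was also the deepest library, with 5347365 gene counts where the others of all groups had 3801758 to 5087215, and had the largest share of reads outside genes (24.3%, others 20.9% to 23.8%). In each of the other groups replicate 2 was the deepest library too. The part of depth or RNA quality in these shifts was not tested.

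**Figure D3:**
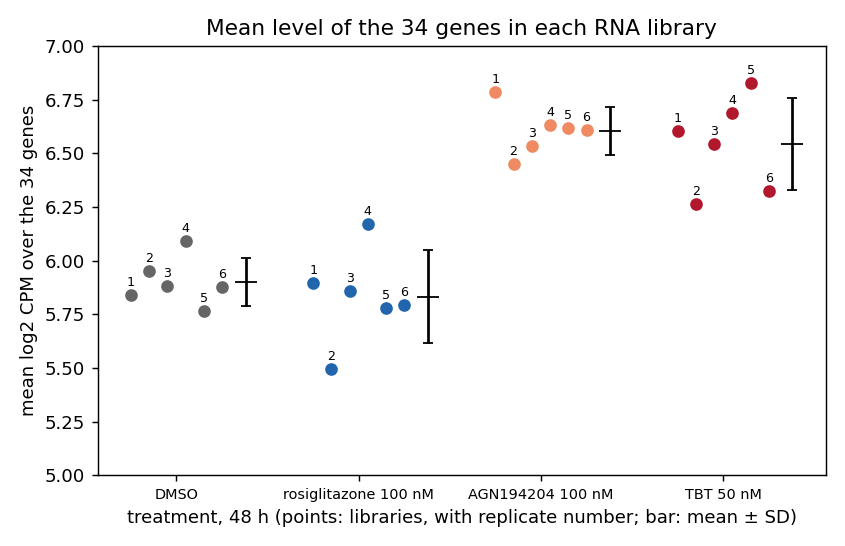
Mean log2 CPM over the 34 genes (y axis) in each RNA library (points, with the replicate number), by treatment (x axis), with the mean ± SD of each group. The lowest TBT library, at 6.27, stands above the highest rosiglitazone library, at 6.17, and the highest DMSO library, at 6.09.

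The upstream side of the pathway was described from lists of other genes. Messages of the interferons themselves were near the limit of detection. None of 21 ligand genes passed the filter, and 15 had no count in any of the 24 libraries, where 0 counts over the 6 libraries of a group allow up to 0.110 to 0.117 CPM. Ifnb1, which encodes interferon β, had 9 counts over the 6 DMSO libraries, 9 in rosiglitazone, 14 in AGN194204 and 15 in TBT, or 0.330, 0.352, 0.536 and 0.567 CPM. Ifna4 had 3 counts in DMSO, 4 in AGN194204 and 2 in TBT, and Ifnab had 3 in DMSO and 1 in TBT. Ifna2 and Ifnz had 2 counts each in TBT, and Ifna13 had 2 in rosiglitazone.

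The receptor genes did not pass the test against DMSO. Of 6 listed receptor genes 5 were tested, and 0 were called in TBT or AGN194204 against DMSO by edgeR or by DESeq2, with 0 at an unadjusted p under 0.05 in edgeR. In TBT against rosiglitazone 1 was called higher, Il10rb, a receptor chain for interferon λ and interleukin 10 (0.40 on the log2 scale, adjusted p = 0.0181). Ifnar1 had 54.1, 62.8 and 67.1 CPM in DMSO and 56.8, 64.0 and 66.9 in TBT (lowest, median, highest), a log2 difference of -0.01 ± 0.069. Ifnar2 had values of 0.12 ± 0.080 in both TBT and AGN194204 (adjusted p = 0.298 and 0.301). The receptor's kinases gave 0.05 for Jak1 in both treatments, and 0.23 in TBT and 0.22 in AGN194204 for Tyk2, with adjusted p of 0.113 and 0.135.

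Of 12 genes in the JAK-STAT list, which holds kinases, transcription factors and inhibitors, 5 were called higher and 0 lower in TBT (15% and 13.9% of all genes), and 6 and 0 in AGN194204 (12.8% and 11.3%; 3 and 0 under spike-in scaling). Stat2 rose by 0.63 in TBT and 0.65 in AGN194204, and Irf9 by 0.41 and 0.48. Both genes are themselves known to be induced by interferon. Stat3 rose by 0.24 and 0.19, and Socs3, a feedback inhibitor, by 0.27 in each. Socs1, the main feedback inhibitor of this relay, passed the test in AGN194204 (0.26, adjusted p = 0.0394) and not in TBT (0.18, adjusted p = 0.160), and the difference between TBT and AGN194204 was -0.08 (adjusted p = 0.850). The AGN194204 calls of Stat3, Socs3 and Socs1 were the ones lost under spike-in scaling.

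Among the interferon regulatory factors 4 of 6 tested genes were called higher in TBT and 3 in AGN194204, with 0 lower. Over all genes 15% were called higher and 13.9% lower in TBT, and 12.8% and 11.3% in AGN194204. Irf7, which drives later waves of interferon α and is induced by interferon, had 120, 132 and 144 CPM in DMSO, 92, 129 and 172 in rosiglitazone, 206, 254 and 281 in AGN194204, and 174, 246 and 302 in TBT. It rose by 0.88 ± 0.10 in TBT and 0.90 ± 0.10 in AGN194204, with no overlap of either group with the DMSO and rosiglitazone libraries. Irf3, the factor that first acts after a sensor fires and is not known for induction by interferon, gave 0.09 (adjusted p = 0.417) and 0.08 (0.474). Irf5 rose by 0.46 and 0.52. Of 20 tested genes of the sensing relay, 6 were called higher and 1 lower in TBT, and 6 and 2 in AGN194204 (5 and 0 under spike-in scaling). The lower calls were not above the shares over all genes given above. Irf3 and Irf7 stand in the relay list too, and Irf9 in both the factor and JAK-STAT lists, so the counts of these lists are not separate. Tlr3, the endosomal receptor for double-stranded RNA, rose by 1.11 and 1.12, Myd88 by 0.42 and 0.33, and Ticam1 by 0.40 and 0.38. Rnaseh2b, a subunit of the enzyme that removes RNA from DNA hybrids, fell by 0.35 in TBT and by 0.26 in AGN194204.

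**Figure D4:**
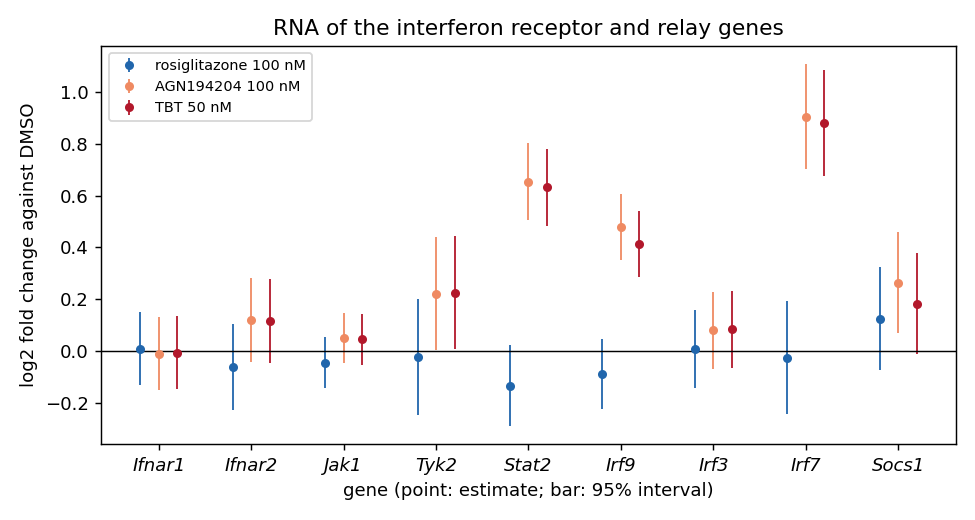
Log2 fold change of RNA against DMSO (y axis) of the receptor, kinase and transcription factor genes of the interferon relay (x axis), with points for the estimates and bars for 95% intervals. Stat2, Irf9 and Irf7 lie well above 0 in TBT and AGN194204, and Ifnar1, Jak1 and Irf3 lie close to 0.

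A further list of interferon-induced genes that are not among the 34 moved the same way. Of 63 listed genes 60 were in the table and 49 were tested, and 40 were called higher and 0 lower in TBT, 44 and 0 in AGN194204, and 1 and 0 in rosiglitazone. Over all genes 15% were called higher and 13.9% lower in TBT, 12.8% and 11.3% in AGN194204, and 1.04% in either direction in rosiglitazone. Under spike-in scaling the counts of the further list were 42 and 0, 38 and 0, and 0 and 0. The median log2 fold change was 0.62, 0.64 and -0.02, beside medians within 0.01 of 0 over all genes tested. Stat2, Irf7 and Irf9 stand in this list too. Tdrd7, which has a role in germ cell and lens RNA granules, had the smallest adjusted p, with rises of 1.01 in TBT and 0.89 in AGN194204. It was also the gene called in rosiglitazone, with a rise of 0.36, no overlap with DMSO, and the call that spike-in scaling ended. Ube2l6, the conjugating enzyme for Isg15, rose by 0.96 and 0.92, and Lgals3bp by 0.77 and 0.74. The genes tested but not called in TBT were Ccl5, Epsti1, Ifi30, Ifitm2, Nmi, Phf11b, Pml, Slfn9 and Sp100. The ISRE core lay in 23 of the 52 listed genes with a promoter entry (44.2%), and the gamma-activated site in 1 of the 52 (1.92%).

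The list of inflammatory genes driven by NF-κB is too short for its calls to be set apart from the shares over all genes. Of 15 tested, 1 was called higher and 1 lower in TBT (0 and 0 under spike-in scaling), and 1 and 2 in AGN194204 (1 and 1). Over all genes 15% and 13.9% were called higher and lower in TBT, and 12.8% and 11.3% in AGN194204. Set directly against AGN194204, TBT was lower in 2 of the 15 (0 under spike-in scaling), Tnfaip3 at -0.33 and Nfkb2 at -0.23. Tnfaip3, an inhibitor of NF-κB, rose by 0.21 in TBT and 0.54 in AGN194204, and Nfkb2 fell by 0.25 in TBT with a value of -0.03 in AGN194204.

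Markers of other cells and states were read in the same libraries. In bulk RNA, a change in the number of cells of a type and a change in RNA per cell cannot be told apart. For the counts of calls that follow, 15% of all genes were called higher and 13.9% lower in TBT. The shares were 12.8% and 11.3% in AGN194204, and 1.04% in either direction in rosiglitazone. Of 18 macrophage and blood markers 3 were tested and 0 called in TBT by edgeR or DESeq2 (1 higher at an unadjusted p under 0.05 in edgeR), and Adgre1, Fcgr3, Tyrobp, Cd52, Ms4a1 and Hbb-bs had no count in any of the 24 libraries. Other untested markers had few counts, given for DMSO, rosiglitazone, AGN194204 and TBT in turn. Ptprc had 2, 0, 1 and 2, Lyz2 0, 0, 6 and 3, and Itgam 5, 6, 3 and 2. Fcgr1 had 0, 1, 1 and 2, Fcer1g 1, 3, 1 and 0, and Laptm5 4, 0, 0 and 0. Mrc1 had 7, 16, 7 and 15, and Cd3e 2, 0, 2 and 1. The summed level of the macrophage and blood list was 54.5 to 61.7 CPM in DMSO, 46.5 to 55.4 in rosiglitazone, 58.2 to 68.2 in AGN194204 and 57.5 to 68.8 in TBT. The 3 tested genes, Cd68, Csf1r and Cd14, gave most of it. Of 8 markers of plasmacytoid dendritic cells, a main source of interferon α, 2 were tested. Both were called higher in TBT, Tcf4 by 0.12 and Ly6c2 by 0.70, and 1 of the 2 in AGN194204. The untested markers had few counts: Siglech and Klk1 had 0 in DMSO and 0 in TBT. Spib had 3 in DMSO and 7 in TBT, Ccr9 4 and 6, Irf8 7 and 12, and Cox6a2 5 and 33. Tcf4 is also made by stromal cells, and it gave most of that list's sum of 306 to 344 CPM in DMSO and 345 to 373 in TBT. The summed level of 12 stromal cell markers was 4582 to 4936 CPM in DMSO and 4509 to 5464 in TBT. Of 11 tested stromal markers 4 were called higher and 2 lower in TBT, and 6 and 2 in AGN194204 (3 and 2 under spike-in scaling). With 11 genes, the lower calls are not set apart from the shares over all genes. Of 6 endothelial markers 2 were tested, with a summed level of 10.1 to 16.2 CPM in DMSO, 5.63 to 8.48 in AGN194204 and 6.05 to 8.46 in TBT. Flt1, a receptor for vascular growth factors, fell by 0.73 in TBT (a call that spike-in scaling ended) and by 0.85 in AGN194204. Pecam1, an adhesion protein, fell by 1.02 in AGN194204 and gave -0.46 in TBT (adjusted p = 0.180). Of 7 fat cell markers 1 was tested, Fabp4, a known PPARγ target. It rose by 4.00 in TBT, 3.25 in AGN194204 and 3.03 in rosiglitazone. The others had few counts, given here for DMSO, rosiglitazone, AGN194204 and TBT in turn. Adipoq had 1, 0, 0 and 0, Cfd 5, 0, 2 and 0, and Retn 0, 0, 4 and 1. Cidec had 2, 13, 26 and 48, Plin1 had 1, 1, 9 and 14, and Lep had no count. Of 12 cell cycle genes 10 were called lower in TBT, 9 in AGN194204 and 0 in rosiglitazone (3 lower at an unadjusted p under 0.05, and 0 called by DESeq2). Under spike-in scaling 2 of the 12 were called lower in TBT and 2 in AGN194204, and 1 of them stood above 0 in TBT. The part of these markers and of the cell cycle in the changes of the interferon-induced genes was not tested.

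H3K4me3 marked the listed starts of these genes in DMSO and TBT cells alike. Each of the 24 genes with a listed start had an island of the mark within 1 kb of it in all 8 libraries, as did 95.6% of the tested genes with a listed start, so this presence is common. Islands had been called by the authors in each library, and overlapping islands were merged into 42705 regions, of which the 12813 with an island in every library were tested. The quantity compared is the sum of ChIP reads in a library's islands, as CPM of the reads in all tested regions, and it grows with the length the islands cover.

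TBT raised the summed H3K4me3 reads at a few of the starts, and 25 of the 26 start regions had values above 0. Of 26 regions at the starts 3 were called higher and 0 lower by edgeR's quasi-likelihood test, where 0.109% of all regions were called higher and 0.0546% lower. They lay at Ifi44, Ifit3 and Rsad2. At an unadjusted p under 0.05, 15 of the 26 were higher and 0 lower (3.79% and 4.39% of all regions), 49.8% of all regions had a value above 0, and the median of the 26 was 0.21 against -0.0005 over all regions. The 4 TBT libraries lay above the 4 DMSO libraries in 8 of the 26 (2.50% of all regions). The 3 calls rest on every library: leaving out any 1 of the 8 left 0 or 1 of them, while DESeq2 called 9 of the 26 higher. For the 10 genes with no listed start, regions on the gene span were read instead, a choice made after seeing the data. Of 11 such tested regions 3 were called higher, at Usp18, Mx2 and Zbp1, and 1 of the 11 is the start region of Dtx3l, which Parp9 shares. Leaving out 1 library ended the Zbp1 call in 8 of 8 fits and the Usp18 and Mx2 calls in 7 of 8 each. Of all 14 regions called higher anywhere, 6 lay at these genes by a start or by that later choice, and of the 7 called lower 0 did. With any 1 of the 8 libraries left out, 5 to 8 regions were called higher anywhere, and 0 to 2 of the 6 kept their call.

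At Ifi44, the region chr3:151739801-151751800 had 36.5, 35.8, 36.9 and 41.7 CPM in the DMSO libraries and 50.5, 55.1, 71.4 and 60.3 in the TBT libraries, with no overlap. The log2 fold change was 0.65 ± 0.11 (edgeR adjusted p = 0.0425). Its islands covered 3.20 to 5.60 kb in DMSO and 4.6 to 12.0 kb in TBT. At Ifit3, chr19:34580001-34591800 had 69.2, 75.5, 86.5 and 72.4 in DMSO and 103, 97.6, 124 and 103 in TBT, a rise of 0.50 ± 0.09 (adjusted p = 0.0451). Its islands covered 7.00 to 8.20 kb in DMSO and 8.00 to 11.8 kb in TBT. At Rsad2, chr12:26449601-26458400 had 52.3, 51.2, 51.7 and 57.7 in DMSO and 76.6, 69.0, 67.1 and 70.9 in TBT, a rise of 0.42 ± 0.07 (adjusted p = 0.0425), with 4.6 to 7.00 kb covered in DMSO and 5.4 to 7.20 kb in TBT. The Ifit3 and Rsad2 regions span the promoters printed above.

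At Usp18, chr6:121241601-121254200 had 113, 101, 124 and 116 CPM in DMSO and 144, 142, 155 and 144 in TBT, a rise of 0.37 ± 0.06 (edgeR adjusted p = 0.043). At Mx2, chr16:97530801-97547600 had 107, 92.1, 111 and 123 in DMSO and 145, 144, 151 and 156 in TBT, a rise of 0.46 ± 0.07 (0.041). At Zbp1, chr2:173213801-173220800 had 47.5, 42.9, 54.2 and 49.9 in DMSO and 66.7, 61.6, 79.2 and 75.4 in TBT, a rise of 0.54 ± 0.09 (0.0472). The mean covered length went from 7.75 to 10.7 kb at Usp18, from 9.35 to 12.1 kb at Mx2 and from 5.45 to 6.10 kb at Zbp1. Mx1, the gene with the largest RNA rise, had an island in 7 of the 8 libraries (all but DMSO replicate 2) and was not tested. In its region chr16:97454601-97465000 the islands held 93, 0, 132 and 87 ChIP reads in DMSO and 239, 82, 248 and 152 in TBT.

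Islands at the starts were mostly longer in TBT and mostly not denser. Mean covered length was greater in TBT at 25 of the 26 start regions (46.5% of all tested regions), with a median of 5.73 kb in DMSO and 6.98 kb in TBT. The CPM per covered kb were higher in TBT at 7 of the 26 (52.5% of all tested regions), with a median log2 ratio of -0.08. On the gene spans 6 of 11 regions were denser in TBT, as were 4 of the 6 regions called higher, with a median of 0.17. Among the called regions, Rsad2, Ifit3 and Zbp1 had log2 ratios of reads per covered kb of 0.29, 0.27 and 0.34, Mx2 of 0.07, and Usp18 and Ifi44 of -0.17 and -0.13. These ratios are descriptions with no test.

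**Figure D5:**
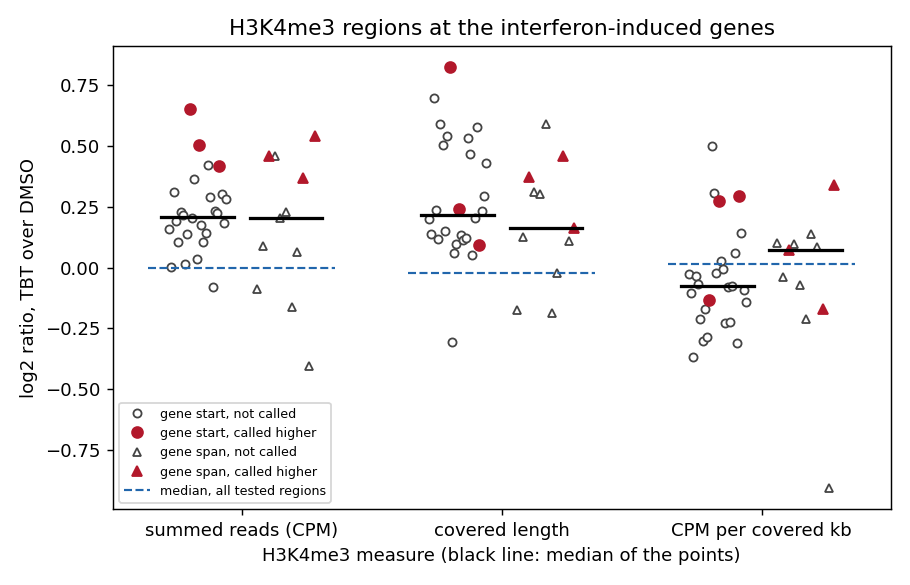
Log2 ratio of TBT over DMSO (y axis) in summed H3K4me3 CPM, covered length and CPM per covered kb (x axis) for the 26 regions at gene starts (circles) and 11 on gene spans (triangles), filled where called higher. The dashed line is the median of all 12813 regions, and the start regions lie mostly above it in reads and length but below it in reads per covered kb.

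Most of the genes whose RNA rose had no H3K4me3 call. Ddx58, whose RNA rose by 0.66, had an H3K4me3 value of 0.10 (adjusted p = 0.830), and Ifit2, whose RNA rose by 0.51, had 0.04 (0.967). Ifit1 and Bst2 had H3K4me3 values of 0.36 (adjusted p = 0.196) and 0.31 (0.157) and were called by DESeq2. Adar and Isg15 had a second region each within reach of a start, and Parp9 and Dtx3l share 1 region, so they are not separate observations. The authors' deposited table of differential H3K4me3 peaks, which lists 246 peaks, holds the Ifit3 region at a DMSO minus TBT log2 value of -0.78 (FDR 0.000966) and the Zbp1 region at -0.75 (FDR 0.0148). No peak of theirs was matched to the other regions called higher here, at Ifi44, Rsad2, Mx2 and the 5′ side of Usp18. The authors' deposited table also lists a peak on the 3′ side of Usp18 (chr6:121268601-121275200) at 1.21 (FDR 0.0367), which is lower in TBT, where the read sum tested here gave -0.41 (adjusted p = 0.705).

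H3K27me3 islands were found at the listed starts at about the share seen over all genes. An island lay within 1 kb of a start in at least 1 of 8 libraries for 8 of the 24 genes, where 32.4% of the tested genes with a listed start had one, and in all 8 libraries for 0 of 24 (6.04% of those genes). The 8 genes were Ifit2, Isg20, Oas1a, Oas3, Cmpk2, Xaf1, Eif2ak2 and Samd9l. At Oas1a the mark was called in 3 DMSO and 4 TBT libraries and at Ifit2 in 3 and 2, and at Isg20, Cmpk2 and Eif2ak2 in 1 library each. None of the 8 starts had an H3K27me3 island at least 3-fold over input, and 0.222% of the tested genes did. The 10 genes with no listed start are not in these counts. On their gene spans, islands lay in all 8 libraries at Oas2 (chr5:120728001-120746000) and at the 3′ side of Usp18 (chr6:121268201-121505600). A further Oas2 region had islands in 1 DMSO and 3 TBT libraries. The share of all genes with such islands on the span was not counted. The authors' deposited table of differential H3K27me3 peaks lists no peak at the 34 genes.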

How the data were processed

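The authors deposited raw read counts per gene for 24 RNA libraries, and per the submitters' processing notes STAR, SAMtools, FastQC and DESeq2 were used on GRCm38. No source used here names the program that counted reads. For each ChIP library the deposited island lists give ChIP and input read counts, a p-value, an FDR and the fold (ratio) over input, computed by the authors with SICER, per the submitters' processing notes. The settings in the deposited names were a 200 bp window, a 600 bp gap and an FDR of 0.001. The authors' differential peak tables, for which the submitters' processing notes name DiffBind, hold deposited log2 concentrations and log2 fold values with p-values.

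Counts were tested with edgeR 4.0.16 in R 4.3.3 (TMM, filterByExpr, 24 libraries in 1 fit, Benjamini-Hochberg over all genes tested, threshold 0.05). The 92 spike-ins and the 5 entries for reads given to no gene (no-feature share 20.9% to 24.3%) were left out. Log2 CPM use a prior count of 2, intervals are 95%, and a limit for 0 counts uses 3 counts and covers counting error only. H3K4me3 islands were merged over 8 libraries, and ChIP counts in regions with an island in every library were tested the same way. Regions within 1 kb of a RefSeq start were given to a gene. DESeq2 1.42.0 was an alternative, and the tests were checked on simulated data. Every member is named, and levels are given for the 3 largest and 3 smallest changes and a preset group (Ifit1, Isg15, Usp18, Mx1, Oas2, Ddx58, Ifih1, Bst2, Eif2ak2, Adar). Of the other lists, preset genes and the 3 with the smallest adjusted p were named first, and the further genes named were chosen after their values were seen. Members and lists were chosen with earlier results of these data known. Single values of some listed genes are not reported here, and the counts of their lists include them.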

Additional observations from a re-analysis of the deposited data

Results flagged for a closer look

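Single libraries stood apart from the others of their group in 16 of 208 groups of libraries checked at these genes, by the gap to the nearest library as a share of the group's range. Chance alone does so in about 1 in 20 groups. Of the groups checked 136 were of RNA, where flags came at about that rate, and they were more frequent in H3K4me3. In RNA, Isg15 had 67.1 CPM in DMSO replicate 3 (others 52.1 to 57.7) and 66.8 in AGN194204 replicate 2 (others 79.0 to 85.2). Isg20 had 28.0 CPM in TBT replicate 2 (others 44.5 to 53.6). Rsad2 and Mx2 were highest in AGN194204 replicate 1, at 156 CPM (others 125 to 133) and 57.6 CPM (others 38.9 to 44.4). Oas2 had 9.72 CPM in DMSO replicate 4 (others 2.76 to 4.51), and without that library its TBT rise was 1.5 and its AGN194204 rise 1.42 on the log2 scale. Trim25 had 232 CPM in rosiglitazone replicate 4 (others 186 to 203). AGN194204 replicates 1 and 2, TBT replicate 2, DMSO replicate 4 and rosiglitazone replicate 4 were also the highest or lowest of their groups for most or many of the 34 genes.

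In H3K4me3, the summed CPM in DMSO replicate 3 stood apart at Oas1a (73.1, others 51.8 to 53.9), Parp12 (195, others 171 to 174) and the 3′ region of Usp18 (12.0, others 23.3 to 25.5), and in DMSO replicate 1 at Rtp4 (29.3, others 21.0 to 21.7). In TBT the library that stood apart was replicate 1 at Oasl1 (67.5, others 43.6 to 47.2) and Parp12 (216, others 205 to 206), replicate 2 at Isg20 (37.9, others 44.2 to 44.9), and replicate 3 at the 5′ region of Usp18 (155, others 142 to 144) and at Bst2 (163, others 171 to 172).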

How the results depend on the processing

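The counts of members called in RNA stayed in the same direction and within 1.5 times in all 6 comparisons under median-ratio scaling, spike-in scaling, no filter on low counts, DESeq2, fits of only the 2 groups compared and leaving out 1 library. Of 408 fits of a member's TBT rise with 1 library left out, 407 kept the call, as did 408 of 408 for AGN194204. The TBT against AGN194204 value of Mx1 ranged from -0.020 to 0.27 with 1 library left out. Same-numbered RNA libraries were only weakly correlated (from -0.0456 to 0.123 over 36 pairs in 6 comparisons, 2 of them over 0.1). In H3K4me3 the correlations ran from 0.00247 to 0.08. Replicate 2 was the deepest RNA library of every group, so same-numbered libraries were not unrelated in depth. With the replicate number as a block, 34 members stayed higher in TBT and in AGN194204, and 2 H3K4me3 start regions were called in place of 3 (Rsad2 lost, adjusted p = 0.0579 by edgeR). The count of 3 start regions was 0 to 1 with 1 library left out, 9 with DESeq2, and 6 with gene spans added, and 3 under total-count scaling, a 2.5 kb window, islands at least 3-fold over input and islands in all 4 libraries of either group. With islands at least 3-fold over input, 0 members had H3K27me3 at the start and 19 had H3K4me3 in every library. The cause of these shifts was not tested. Over all genes, spike-in scaling gave 908 higher and 300 lower in AGN194204 (1600 and 1414 otherwise) and 21 and 12 in rosiglitazone (77 and 53). Over all H3K4me3 regions, 14 higher and 7 lower became 71 and 65 with DESeq2 and 98 and 74 with islands in all 4 libraries of either group. Spike-in scaling raised the median of all genes by 0.13 in TBT against rosiglitazone. Mx1, Oas2 and Oas3, the members with the fewest counts among those named by level, had the widest intervals, and the libraries of a group also spread widely there, so small changes of these genes are not resolved.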
